A study of Arabidopsis thaliana with 16 samples.

Results

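Siliques, the fruits that carry the developing seeds, were compared with pistils that had not been pollinated, on 4 of the 16 ATH1 arrays of the series. The 2 silique arrays and the 2 pistil arrays were chosen by their labels, and each pair was given as biological duplicates. All plants were Arabidopsis thaliana of the ecotype Columbia, with no transgene or treatment named for either group. The siliques were collected 2 weeks after bolting and hold the fruit wall together with seeds, so that fruit wall and seed were not separated, and the pistils hold stigma, style, ovary wall and unfertilised ovules. The 2 sides were taken from different earlier studies. Siliques, flowers, leaves, seedlings and pollen came from one, pistils and ovules from another, and only the root hairs were prepared for the series itself, so that tissue and study cannot be told apart in any value below. As the labels do not say that the duplicates came from separately grown plants, the p-values measure the spread between duplicate arrays. That spread was pooled over the duplicates of all 8 sample types, so that an SE below is not that of the 4 arrays alone.

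After fertilisation the carpels grow into the fruit, the zygote becomes the embryo, the endosperm feeds it, and the integuments of the ovule become the seed coat. Seed coats lay down flavonoid polymers and mucilage, and embryos build oil bodies and storage proteins late in development. Tissues that serve only pollination, such as the stigma and the transmitting tract of the style, come to an end. In whole organs, fewer cells of a type and less RNA per cell cannot be told apart.

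Of 22810 probe sets, 22746 remained without the controls. The measure was log2 of the deposited intensity plus a pseudocount of 71.9, and a probe set was tested with limma across all 16 arrays at an adjusted p under 0.05 (Benjamini-Hochberg). An intensity above 216, 3 times the pseudocount, was taken as detected. By that level 54.3% and 52.8% of the probe sets were detected in the silique arrays and 50.1% and 50.8% in the pistil arrays. Replicate arrays correlated at 0.996 in siliques and 0.990 in pistils, and a silique with a pistil array at 0.868 to 0.877. The upper quartile of the intensities was 663 and 671 in siliques and 544 and 545 in pistils.

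With this test 11236 probe sets (49.4%) differed, of which 7456 (32.8%) were higher and 3780 (16.6%) lower in siliques. Both silique arrays lay above both pistil arrays in 44.8% of all probe sets and below both in 25.4%. Of the called probe sets, 1650 (7.25%) higher and 754 (3.31%) lower ones also differed by at least 1 on the log2 scale. That limit, called 2-fold below, is set on intensity plus the pseudocount, so that plain intensities can differ by more. Calls higher in siliques thus made up 66.4% of all calls, but the split rests on the scale of the arrays: it was 47.6% after quantile normalization and 38.7% after scaling to the 75th percentile. That last scaling shifted the median difference by -0.16, from 0.07 to -0.10. Differences near that size are therefore given below with their values and not dwelt on, while all 754 lower and at least 1649 of the 1650 higher probe sets past 2-fold passed the test in the same direction under both scalings.

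**Figure D1:**
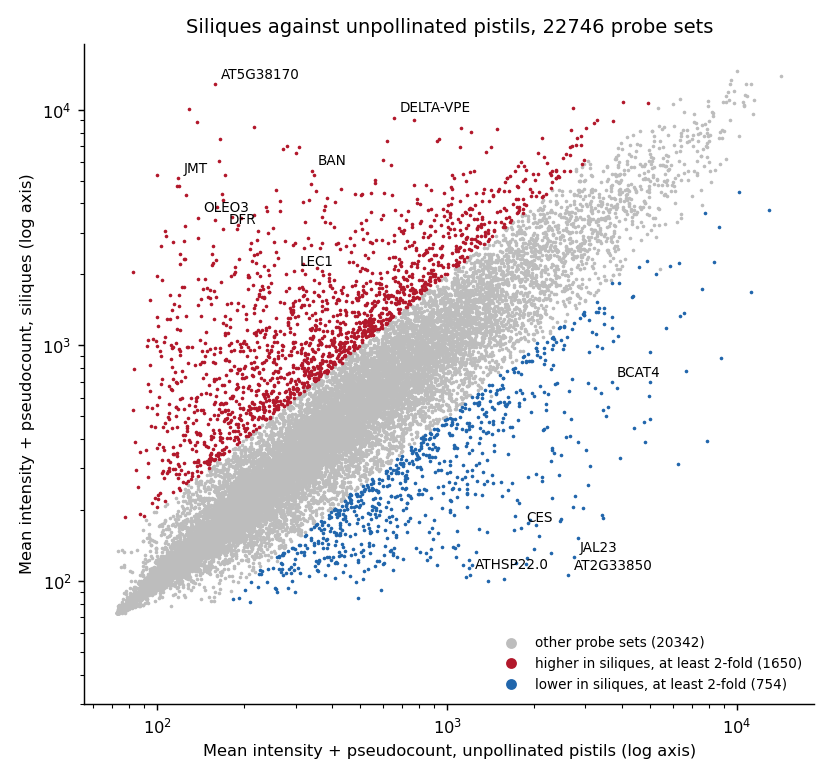
Mean intensity plus the pseudocount in unpollinated pistils (x axis, log) and siliques (y axis, log) for 22746 probe sets, each mean over 2 arrays. Red points are the 1650 probe sets at least 2-fold higher in siliques and blue points the 754 lower, and the widest gaps lie among genes near background in pistils, such as AT5G38170 and JMT.

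Among the 1650 probe sets, 667 were detected in siliques and not in pistils, and 1001 (60.7%, against 12.8% of all probe sets) had their highest mean of the 8 sample types in siliques. In the other direction 390 of 754 probe sets were detected in pistils and not in siliques. The counts of 667 and 390 are partly fixed by the choice of probe sets at least 2-fold apart. No matching count over all probe sets was made, so they are not read as an excess. Of the 754, 241 (32.0%, against 3.84% of all) had their highest mean in pistils. The shares with the highest mean in siliques (60.7%) and in pistils (32.0%) are also partly fixed by the choice, which set the order of the 2 organs. A further 222 (29.4%) of the 754 had their highest mean in ovules, near the 25.1% of all probe sets.

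The 12 named genes with the widest gap upward were near background in both pistil arrays and bright in siliques. AT5G38170 gave 12902 and 12580 in the silique arrays and 78.7 and 94.7 in the pistil arrays, a log2 difference of 6.34 ± 0.080 (SE, n = 2 arrays per group, limma adjusted p = 1.5e-16). Its neighbour on the chromosome, AT5G38160, gave 10253 and 9822 against 54.6 and 59.0, a difference of 6.30 ± 0.072. Flowers, from the same study as the siliques, held 85.2 and 55.6 for the pair, and ovules, from that of the pistils, 105 and 58.3. Both genes were thus bright in siliques and near background in the other types set beside them. They belong to a run of 4 loci on chromosome 5, with at most 2 genes between one and the next, that were all raised. The other members, AT5G38180 and AT5G38195, were named after their values were seen, and differed by 4.37 and 3.55.

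A pair of pectin methylesterases stood in this group, enzymes that remove methyl groups from wall pectin. ATPMEPCRD gave 7427 and 7519 in siliques against 82.7 and 102 in pistils (5.52 ± 0.11), and flowers held 373. The pectinesterase family gene AT1G23200 gave 5025 and 5407 against 98.6 and 100.0 (4.95 ± 0.080). Flowers held 516 for the latter, so that both were detected there at a fraction of the silique level, and neither was detected in ovules or leaves.

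JMT, which methylates jasmonic acid, gave 5179 and 4921 in siliques and 41.8 and 50.9 in pistils, a log2 difference of 5.44 ± 0.13 (adjusted p = 6.9e-14). It differed from the rest of the 12 in its high flower level of 3264, while ovules held 59.2. AT4G15750 (8067 and 8737 against 132 and 154) and AT5G47350 (4188 and 4450 against 90.9 and 99.5) were the genes of the 12 that ovules also held above the detection level, at 1514 and 384. The thaumatin family gene AT1G19320 gave 2512 and 2614 in siliques and 33.1 and 29.7 in pistils. The remaining genes, AT4G15390, AT3G24250, AT5G39130 and the oleosin OLEO3, differed by 4.68, 4.65, 4.64 and 4.66.

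Downward, the 12 genes were bright in pistils and below the detection level in both silique arrays, except AT4G17470, which lay just above it in silique replicate 1. AT2G33850 gave 37.8 and 29.7 in siliques against 2515 and 2579 in pistils, a log2 difference of -4.63 ± 0.091 (adjusted p = 7.4e-15). Ovules held 36.4 and flowers 1499, so that whole pistils and flowers held the transcript and isolated ovules did not. The jacalin-related lectin JAL23 gave 56.9 and 50.9 against 2790 and 2540 (-4.44 ± 0.17), and here ovules held 2766. The desaturase family gene ADS4 gave 56.6 and 49.0 against 1813 and 1821 (-3.92 ± 0.089) with 2512 in flowers, on a probe set that can bind related transcripts.

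Most of the other genes in that direction were shared with ovules or flowers. AT1G52000, AT1G30795, AT4G07515, AT1G54020 and AT1G28400 were detected in both, and differed by -4.13, -3.99, -3.87, -3.77 and -3.72. AT5G52390 gave 48.3 and 47.2 in siliques and 1815 and 1493 in pistils (-3.84), with 112 in ovules and 87.1 in flowers. AT4G17470 gave 226 and 142 against 2899 and 3054 (-3.60), with 245 and 117. For these 2 genes and for the small heat shock gene ATHSP22.0, described below, neither ovules nor flowers came near the level of the pistils. AT2G07718 differed by -3.74, on a probe set open to related transcripts.

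**Figure D2:**
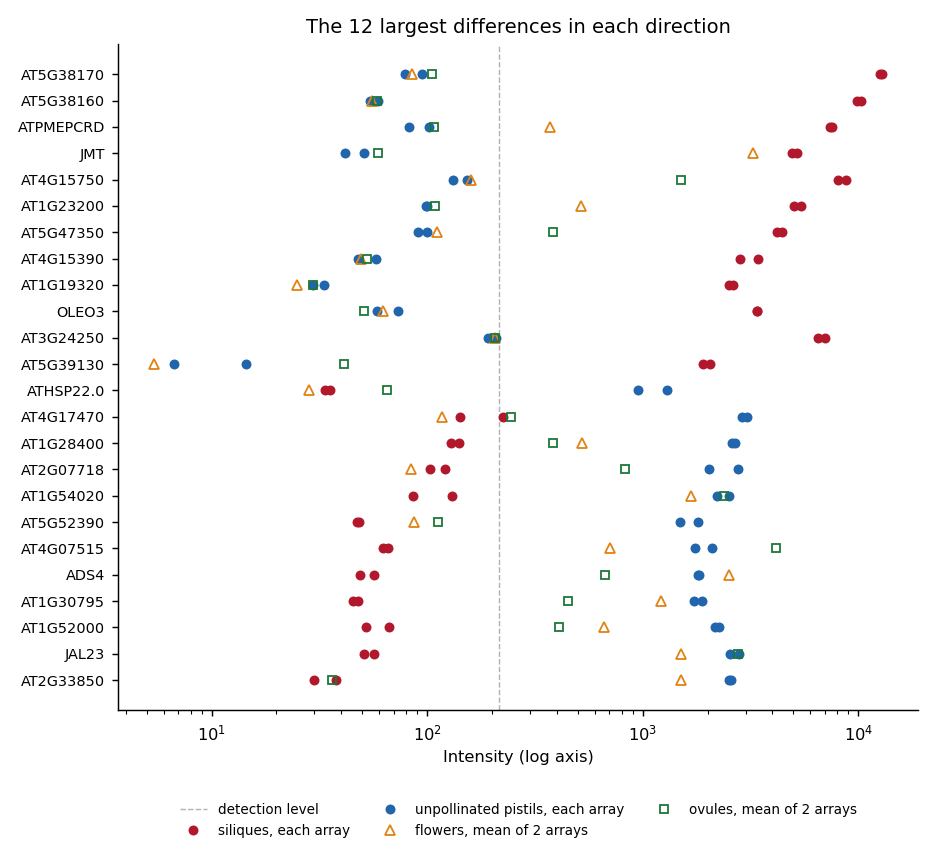
Intensity (x axis, log) of the 12 named genes with the largest difference in each direction. Filled points are single arrays of siliques (red) and unpollinated pistils (blue), open triangles and squares the means of 2 flower and 2 ovule arrays, and the dashed line the detection level of 216; the silique and pistil arrays lie apart in every row, as the choice of genes requires.

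Seed genes were read from lists drawn up by function, whose medians are set against 0.07 over all probe sets. Of 588 list entries, 154 genes were measured under the names used here, so several lists are short. The counts below stand against 32.8% higher and 16.6% lower among all probe sets. In the fit without dim probe sets, 5810 of 12246 were higher and 2603 lower, with a median of 0.20. That is the closer base for lists whose members were mostly detected. OLEO3, which coats the oil bodies of seeds, gave 3405 and 3406 in siliques against 58.4 and 73.5 in pistils (4.66 ± 0.077, adjusted p = 1.5e-15), with no signal above background in flowers (62.7) or ovules (50.9). DELTA-VPE, a protease of the seed coat, gave 9295 and 9043 against 566 and 605 (3.81 ± 0.087) and was also high in ovules, at 4864. BETA-VPE, its relative that processes storage proteins, gave 1064 and 1031 against 164 and 206 (2.13 ± 0.10), though flowers were higher at 2052.

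Of 13 seed storage genes listed, 2 were measured here, and neither passed the test. CRU2, a cruciferin, gave 26.8 and 44.0 in siliques and 29.4 and 24.3 in pistils, and the vicilin-like PAP85 gave 75.5 and 74.9 and 80.3 and 68.7. Each value lies below the detection level, and in both genes the arrays of the 2 groups overlapped. The adjusted p was 0.21 and 0.94, though CRU2 passed at 0.23 without silique replicate 1. No call was made either for LEA4-5, TSPO, LEA18, M10 and M17, genes of late embryogenesis, none of which was detected in siliques, and for the oil body gene AT1G05510 (0.04). LEA4-5 gave 66.4 and 77.2 in siliques and 33.9 and 46.7 in pistils (0.36) and TSPO 117 and 119.7 and 76.3 and 78.6 (0.35). Of the 7 measured genes of late embryogenesis and seed maturation, 2 were thus higher and 5 did not pass, with a median of 0.35, and the count of 2 became 4 with a pseudocount of 1, with only the 4 arrays and with only the 6 tissues in the fit.

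Embryo and endosperm regulators showed 4 higher and 4 that did not pass among the 8 measured. LEC1, a subunit of the nuclear factor Y complex that drives embryo identity and maturation, gave 1931 and 2059 in siliques and 215 and 234 in pistils, a log2 difference of 2.80 ± 0.087 (adjusted p = 1.1e-12). Ovules held 275, flowers 206 and leaves 239, so that the gene stood out in siliques. The MADS box gene AGL18 gave 1008 and 997 against 483 and 589 (0.83) but was higher in flowers, at 1334. The bZIP genes BZO2H1 and EEL, which act on seed genes, differed by 0.65 and 0.61, the latter from 68.1 and 66.8 to 135 and 146, below the detection level throughout. BZIP53, a partner of these factors, overlapped between the groups (-0.01), and the endosperm genes IKU1, IKU2 and AGL62 differed by 0.12, 0.15 and 0.07 and did not pass.

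All 5 measured genes of flavonoids and proanthocyanidins were at least 2-fold higher in siliques, with a median of 1.63. DFR, which makes leucoanthocyanidins, gave 2865 and 3204 in siliques and 88.9 and 104 in pistils, a log2 difference of 4.203 ± 0.10 (adjusted p = 5.9e-14). BAN, the anthocyanidin reductase at the branch to proanthocyanidins, gave 5251 and 5620 against 310.0 and 233 (4.01 ± 0.11). AHA10, the proton pump that the vacuole of the seed coat needs to take up these precursors, gave 383 and 400.3 against 83.4 and 73.2 (1.63). These 3 genes were low in flowers, at 95.6, 177 and 75.5, and were held by ovules at 439.5, 2497 and 569, so that ovules lay above the whole pistils for each and above siliques for AHA10. The glucosyltransferases UGT78D1 and UGT78D2, which act on flavonols and anthocyanins, differed by 1.15 and 1.297 and were bright in leaves too, at 1675 and 2508.

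In seed coat mucilage and wall 4 of 6 genes were higher, with a median of 1.01. MYB61, a regulator of mucilage, gave 1040 and 1039 in siliques against 156 and 172 in pistils (2.24 ± 0.074). CESA5, the cellulose synthase subunit that anchors mucilage, gave 1901 and 1775 against 672 and 627 (1.405). GATL5, a glycosyltransferase for mucilage, differed by 1.201, and the mucilage beta-galactosidase MUM2 by 0.82. Leaves held more than siliques for CESA5 and MUM2, at 2187 and 1060, and root hairs held 1953 for MUM2. For MYB61 and GATL5 leaves held less, at 94 and 244. GAUT11 and CSLA02 did not pass, with differences of 0.18 and -0.01.

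Genes of fatty acid and oil synthesis were higher in 5 of 7 cases, with a median of 0.84. PDH-E1 ALPHA, a subunit of the plastid pyruvate dehydrogenase that supplies acetyl-CoA, gave 5059 and 5092 against 1629 and 1444 (1.68 ± 0.088, adjusted p = 4.6e-10). FaTA, which releases fatty acids from their carrier, gave 689 and 719 against 195 and 183 (1.57), and the related FATB differed by 0.84. GPT1, which carries glucose phosphate into plastids, and GPAT9, which starts glycerolipid assembly, differed by 0.93 and 0.46. Both were highest in root hairs, at 859 and 1956. Flowers held more FATB than siliques, at 3533 against a mean of 2721, but less PDH-E1 ALPHA (2552) and FaTA (183). The triacylglycerol enzymes TAG1 and PDAT, which add the last acyl group, did not pass, at 0.07 and 0.20. TAG1 passed at -0.22 after quantile normalization, and the call for GPAT9 was lost under both scalings.

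**Figure D3:**
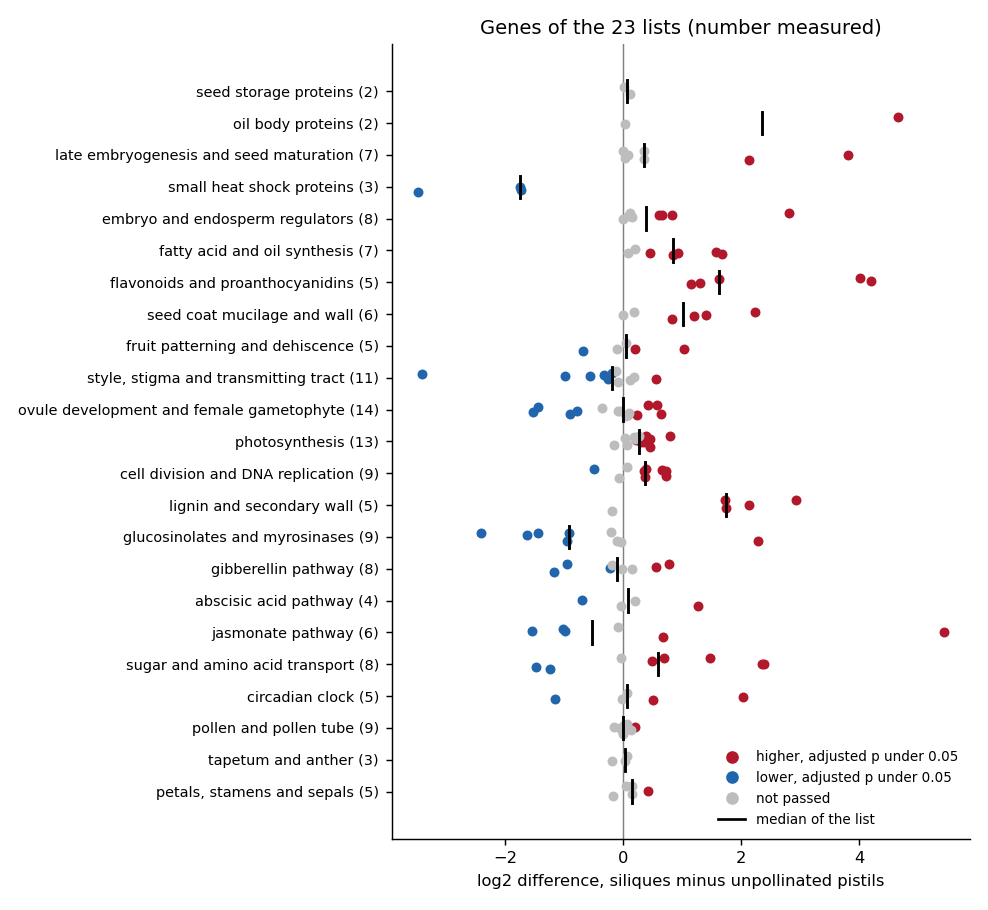
Log2 difference between siliques and unpollinated pistils (x axis) for the measured genes of 23 lists, the number measured in brackets. Red and blue points passed the test upward and downward, grey points did not, and black bars are list medians; all 5 flavonoid genes lie to the right and all 3 small heat shock genes to the left.

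Of 24 genes of fruit patterning and dehiscence listed, 5 were measured, of which 2 were higher, 1 was lower and 2 did not pass, with a median of 0.04. STK, the MADS box gene of ovule and seed identity, gave 3085 and 3148 in siliques and 1574 and 1404 in pistils (1.03 ± 0.10, adjusted p = 5.4e-07), and ovules held 4771. ADPG1, a polygalacturonase of fruit opening, was lower, at 396 and 412 against 754 and 626 (-0.67). ALC, a factor of the opening zone, passed narrowly at 0.20 (adjusted p = 0.047) and turned to -0.07 after quantile normalization and -0.06 after 75th percentile scaling. Its call was also lost without either silique replicate (0.20 each) and without pistil replicate 2 (0.12), which left 1 gene of the list higher. JAG and YAB3, which pattern lateral organs, did not pass (0.04 and -0.10).

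Genes of the style, stigma and transmitting tract were lower in 6 of 11 cases and higher in 1, with a median of -0.19. CES, a bHLH factor of the transmitting tract, gave 106 and 86.7 in siliques and 1776 and 1668 in pistils, a log2 difference of -3.42 ± 0.10 (adjusted p = 9.0e-13), with 1303 in flowers and 806 in ovules. It was the only member past the 2-fold limit, which is set after adding the pseudocount. ARF8, an auxin response factor that holds back fruit growth before fertilisation, gave 498 and 497 against 1096 and 1023. Its plain mean intensities differed 2.13-fold, but its log2 difference of -0.99 fell just short of the limit. SHI and SPT, which shape the style, differed by -0.56 and -0.33, and the B3 domain genes NGA2 and NGA3 by -0.26 and -0.19, while NGA4 went up by 0.56. The call for NGA3 was lost in each of the 4 fits without 1 array (-0.22 to -0.15), that for NGA2 in all of these but the one without pistil replicate 1 (-0.27 to -0.16), and that for NGA4 under both scalings. The count of 1 higher became 2 without silique replicate 2 and without pistil replicate 2.

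Of 14 genes of ovule development and the female gametophyte, 4 were lower and 4 higher. EC1.5 and EC1.2, which encode small proteins that egg cells secrete at fertilisation, gave 40.2 and 31.9 and 94.4 and 93.7 in siliques against 226 and 253 and 197 and 232 in pistils. Their differences were -1.53 ± 0.084 and -0.78 ± 0.074, and isolated ovules held 899 and 824. INO, a YABBY factor of the outer integument, gave 149 and 119 against 516 and 459 (-1.44 ± 0.10), with 1734 in ovules. HLL, a ribosomal protein needed for ovule growth, gave 494 and 504 against 856 and 1152 (-0.90). All 4 were thus highest in ovules, lower in pistils and lowest in siliques among these 3 types. The other direction was narrow: PHV, a homeodomain factor of organ polarity, MEA, the maternally expressed Polycomb subunit that restrains the endosperm, the receptor kinase FER and the central cell gene AGL80 differed by 0.63, 0.58, 0.41 and 0.24. The calls for FER and AGL80 were lost under both scalings and without single arrays, with FER at 0.15 without pistil replicate 2 and AGL80 at 0.14 without silique replicate 1. The count of 4 higher became 2 without silique replicate 1.

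Walls and lignin gave another group of higher genes. Of 5 measured, 4 were at least 2-fold higher, with a median of 1.74. GUT2, a glycosyltransferase of the xylan backbone, gave 1563 and 1725 in siliques and 151 and 157 in pistils (2.93 ± 0.080, adjusted p = 2.4e-13). CCR1 and HCT, enzymes of monolignol synthesis, gave 2861 and 3089 against 636 and 606 and 5622 and 6284 against 1681 and 1782 (2.14 and 1.74). MYB58, a factor that switches on lignin genes, gave 456 and 478 against 88.6 and 94.0 (1.72). In leaves CCR1 was higher than in siliques, at 3490, and HCT was close to its silique level, at 5479. GUT2 and MYB58 lay below the detection level in leaves. XCP2, a protease of xylem vessels, gave 1442 and 1732 against 1811 and 1831 and did not pass (-0.20, adjusted p = 0.33).

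Further genes of xylan were named after their values were seen and picked for being higher, so that their direction was set by the choice and no count over such genes was made. IRX15 gave 714 and 959 against 46.1 and 49.5 and IRX15-L 2195 and 2634 against 172 and 196, both proteins needed for xylan of normal length. GXM3, which methylates the glucuronic acid side groups, gave 721 and 753 against 42.3 and 38.8. PARVUS, which acts at the reducing end, and UXS3, which makes UDP-xylose, differed by 2.13 and 2.15. GXM3 and IRX15 were near background in pistils, flowers (35.5 and 44.2) and ovules (30.4 and 43.3).

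Some wall families were grouped by gene name after the values were seen. Of 15 glycosyl hydrolases of family GH9, the endoglucanases, 10 were higher and 1 lower, from 3.79 for GH9C1 to -2.02 for GH9B13. Of 22 TBL genes, several of which acetylate wall polymers, 10 were higher and 2 lower. Their median of 0.22 lay near the 0.20 of the fit without dim probe sets, where 5810 of 12246 were higher. The TBL count is thus not read as a shift of the family. TBL38 led with 5887 and 6250 against 514 and 543. The xyloglucan enzymes of the XTH family had no higher and 5 lower among 11. XTH16 gave 118 and 99.9 in siliques and 2310 and 1420 in pistils (-3.38), XTH19 95.0 and 84.1 against 673 and 632 (-2.17) and XTH18 62.3 and 33.0 against 342 and 335 (-1.79).

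**Figure D4:**
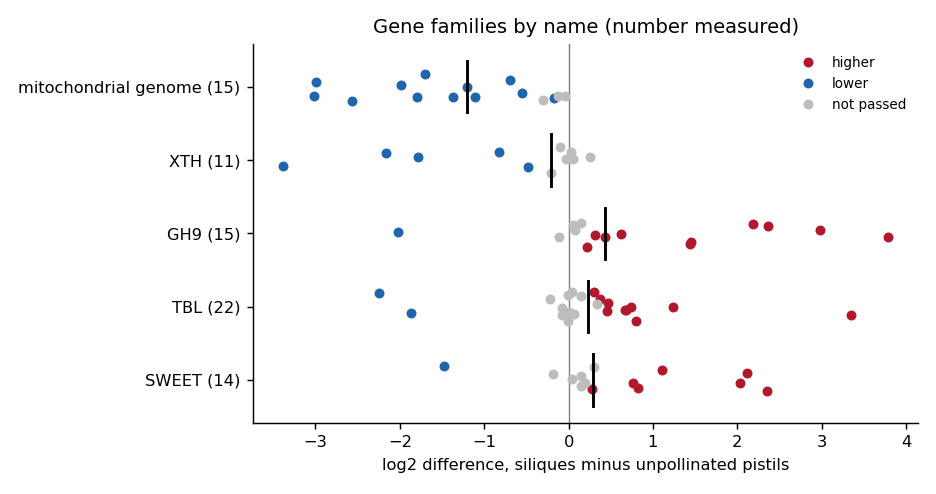
Log2 difference between siliques and unpollinated pistils (x axis) for genes grouped by name, 1 probe set per gene, the number of genes in brackets. Red and blue points passed the test upward and downward, grey points did not, and bars are medians; 12 of 15 mitochondrial genes and 5 of 11 XTH genes lie to the left as lower, and 10 of 15 GH9 genes to the right as higher.

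Transport genes split by member. SWEET11, a sucrose exporter that feeds the seed, gave 1711 and 1820 in siliques and 320.5 and 260.3 in pistils (2.35 ± 0.10), and SAG29, also SWEET15, gave 1610 and 1558 against 649.6 and 418 (1.48). Flowers held 1812 for SWEET11 and 2256 for SAG29, and leaves 2200 and 134, so that neither was highest in siliques. The peptide transporter PTR5 rose from 157 and 129 to 980.4 and 1133 (2.39 ± 0.16), and the sucrose carriers SUC2 and SUT4 differed by 0.69 and 0.50. SWEET4 went the other way, at 302 and 305 against 1125 and 836 (-1.47), with 4019 in ovules, and so did the hexose carrier STP1 at -1.23. AAP8, an amino acid carrier, did not pass (-0.03). In all, 5 of 8 were higher and 2 lower.

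Glucosinolate genes were mostly lower, 5 of 9, with a median of -0.91. BCAT4, which starts the chain elongation of methionine, gave 574 and 679 in siliques and 3571 and 3673 in pistils (-2.41 ± 0.12, adjusted p = 4.1e-10). CYP79F1, read on a probe set that can bind related transcripts, gave 142 and 161 against 625 and 622 (-1.64), and the plastid carrier BAT5 413 and 443 against 1116 and 1473 (-1.44). The transporter GTR2 and the sulfotransferase SOT17 differed by -0.95 and -0.91, and the count of 5 became 8 after 75th percentile scaling. Ovules held less than siliques, at 90.2 for BCAT4 and 32.9 for CYP79F1. Flowers, from the study of the siliques, held 104 and 29.5 for this pair, and leaves 4788 and 1120. Flowers also lay below siliques for BAT5 (132) and SOT17 (254), but above them for GTR2 (871). AOP3, which modifies the side chain, was higher, at 1321 and 1359 against 227 and 209 (2.28 ± 0.093).

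Hormone genes had no common direction. In the jasmonate list JMT and the lipoxygenase LOX3 (0.67) were higher, and the repressors JAZ5 and JAZ1 and the cyclase AOC4 were lower. JAZ5 gave 136 and 106 against 533 and 449 (-1.54), and JAZ1 and AOC4 differed by -1.02 and -0.98. PDF1.2 was near background on both sides. Among gibberellin genes the receptors GID1A (304 and 313 against 827 and 738, -1.17 ± 0.075) and GID1B (-0.95) were lower, and GA3OX1 and GA3, which act in synthesis, were higher by 0.77 and 0.55. GA2OX6, which inactivates gibberellins, passed at -0.23 and was lost without single arrays. The abscisic acid list had the phosphatase HAB1 higher at 1.27 and the receptor PYR1 lower at -0.70, while ABI1 and ABF3 did not pass (0.21 and -0.03).

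Clock genes went both ways. LHY, a morning gene, gave 742 and 740.4 in siliques and 120.2 and 137 in pistils (2.02 ± 0.083), and GI, an evening gene, gave 485 and 505 against 1266 and 1131 (-1.16 ± 0.11). ZTL was higher by 0.51, and PRR7 and RVE1 did not pass (0.07 and -0.01). Flowers, from the study of the siliques, held 1066 for LHY and 301 for GI, and ovules, from that of the pistils, 124 and 1263. In these 4 types LHY was high in 1 study and low in the other, and the hour of collection is not given in the sources used here.

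All 3 small heat shock genes were at least 2-fold lower in siliques. ATHSP22.0 gave 35.4 and 33.5 in siliques and 955 and 1291 in pistils (-3.48 ± 0.10, adjusted p = 8.0e-13), HSP17.6II gave 112 and 118 against 490.4 and 629 (-1.75 ± 0.17) and HSP17.6A 80.8 and 103 against 465 and 473 (-1.73 ± 0.15). These chaperones are made on heat and late in seeds. Flowers and ovules lay below the detection level for each gene. Pollen held 381 for ATHSP22.0, 1161 for HSP17.6II and 827 for HSP17.6A.

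Photosynthesis genes were detected on both sides and 7 of 13 were higher by small amounts. Their summed intensity was 93546 to 95143 in siliques and 78225 to 82094 in pistils. SBPASE, an enzyme of carbon fixation, had the widest gap at 0.79, followed by PRK at 0.46, RCA at 0.45 and PSBY at 0.38. The count of 7 became 2 after quantile normalization and 1 after 75th percentile scaling. Cell division genes were similar, with 6 higher and 1 lower of 9, and 3 higher under either scaling and without pistil replicate 1. The kinase AUR2, the kinesin HIK and the replication clamp PCNA1 differed by 0.73, 0.73 and 0.66, and the cyclin CYCA2;3 by -0.50.

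Of the genes of pollen, anthers and petals that were measured, EMS1 alone was detected in siliques or pistils. The 9 pollen genes summed to 650 to 696 in siliques and 615 to 703 in pistils, against 8875 to 8878 in flowers, and none was detected on either side. ROPGEF12, a pollen activator of small GTPases, passed at 0.21 with 43.9 and 38.2 in siliques and 24.8 and 27.3 in pistils. Its call was lost under both scalings, with a pseudocount 4 times as large and in each of the 4 fits without 1 array (0.17 to 0.24). ACA9, SYP131 and PRF4 differed by 0.13, 0.07 and -0.16. The 3 genes of tapetum and anther did not pass (AMS 0.06, CYP703A2 0.02, EMS1 -0.19), and EMS1, a receptor kinase of anthers, was detected on both sides and at 3385 in ovules. Without pistil replicate 1, EMS1 passed at -0.33. Of the 5 genes of petals, stamens and sepals, SAP passed at 0.43, PTL, UFO and RBE did not (-0.17, 0.14 and 0.05), and none was detected. SWEET9, the exporter of nectaries, gave 117 and 120.1 in siliques and 95.1 and 104 in pistils, with 2970 in flowers.

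**Figure D5:**
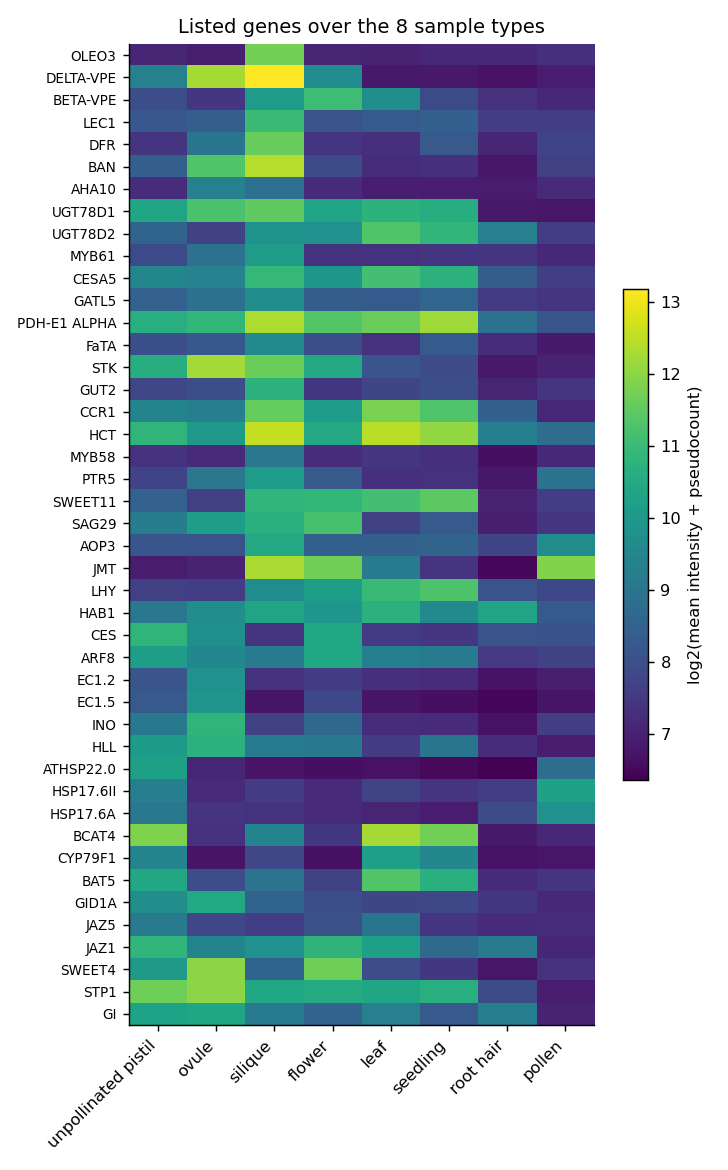
Colour scale of log2(mean intensity + pseudocount), each mean over 2 arrays, for listed genes (rows) in the 8 sample types (columns). The rows from OLEO3 to HAB1 are genes higher in siliques than in unpollinated pistils and those from CES to GI genes that were lower. OLEO3 and LEC1 are bright in siliques alone, and EC1.2, EC1.5 and INO brightest in ovules.

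Regulators were also ranked by size among 204 probe sets whose gene names or synonyms mark a transcription factor or receptor kinase. Of these, 56 were higher and 30 lower, both smaller shares than the 32.8% and 16.6% of all probe sets. The choice went by gene names and synonyms alone. It left out regulators whose names do not match, such as CES and INO above, and RR22, named after its values were seen. Within it, after LEC1 and MYB61, the widest gaps upward were those of AGL87 (1009 and 1027 against 167 and 194, 2.11 ± 0.073), MYB60 (399 and 364 against 54.1 and 55.5, 1.84 ± 0.078) and MYB58. AGL87 belongs to the MADS box genes, and MYB60 is known from guard cells. Downward they were bZIP1 (48.3 and 52.9 against 479 and 361, -1.99 ± 0.10), a factor of the starvation response, then the receptor kinase LRR XI-23, WRKY6, AGL26 and HB-1, at -1.23, -1.08, -1.07 and -1.06. The arrays of the 2 groups lay apart for all 10.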

How the data were processed

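The values are the intensities deposited by the authors for 16 ATH1 arrays, 2 for each of 8 sample types. Scans were read with GCOS 1.4 and MAS5, as the submitters state in their notes on processing. The authors, as their methods say, then computed model-based intensities with dChip, which puts all arrays on 1 scale. No probe-level step was repeated, and detection calls were not used here.

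Intensities were taken as log2(intensity + 71.9), where the pseudocount is each array's 20th percentile, taken as a median over the arrays. With R 4.3.3 and limma 3.58.1, 1 mean per sample type was fitted to all 16 arrays (8 residual degrees of freedom, mean-variance trend), siliques were contrasted with unpollinated pistils, and p was adjusted by Benjamini-Hochberg over 22746 probe sets. The fit was tried on values simulated over the same 22746 probe sets, with few of them changed, independent noise and no offset between studies. It recovered 80% of changes of 0.5 and 98% of changes of 1 on the log2 scale, and called 8 unchanged probe sets. In the real contrast far more probe sets differed, so these rates need not hold for it. Fold changes of dim probe sets are understated on this scale, and 2 arrays per group limit the precision. Tables were made with Python 3.11.15, pandas 2.3.3 and numpy 2.4.6.

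Platform annotation and the paper's tables named 1 gene for 15570 probe sets, several for 548 and none for 6628. Of 2685 named by both sources, 57 differed. Of 588 entries in 23 lists, 550 were kept, as their symbols matched the reference, and 154 genes were measured, each by its brightest probe set. The text names the 12 probe sets of 1 gene with the largest difference in each direction among those called with no overlap between the arrays, from every list the 4 genes that differed most, and the whole list where at most 6 were measured, the called genes of the seed, embryo and fruit lists, and the 5 regulators of each direction. Members, lists and tests were chosen with earlier results of these data known. The replicate numbers do not pair the arrays, since they come from different plants and studies. Alternatives changed the scaling, pseudocount, filter, arrays fitted and the replicate block. Promoter sequences were not analysed here.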

Additional observations from a re-analysis of the deposited data

How the results depend on the processing

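Calls past 2-fold held and small ones moved with the scale. After quantile normalization 4653 probe sets were higher, and after 75th percentile scaling 4176 were higher and 6615 lower. With the 2-fold limit, 75th percentile scaling gave 1093 higher and 1151 lower, a pseudocount of 1 gave 1168 lower, and a pseudocount 4 times as large gave 979 higher and 357 lower. Without 1 array the counts ranged from 6262 to 6843 higher and from 2994 to 3540 lower, and past 2-fold from 1630 to 1729 and from 743 to 813. The detected share was 64.0% of probe sets in siliques and 61.6% in pistils at 2 times the pseudocount, and 40.5% and 36.3% at 5 times. No named or listed gene called at least 2-fold lost its call or turned under any alternative that tested it. The largest call lost was 0.56 on the log2 scale, and 14 called genes were lost in 1 or more of the fits without 1 array. Values that turned were those of TAG1 (-0.22, quantile normalization), ALC (-0.073 after quantile normalization and -0.0635 after 75th percentile scaling), PSAE-1 (-0.27) and PSAO (-0.0693), the last 2 after 75th percentile scaling. Of 46 counts of list members, 12 moved by over 1.5 times after quantile normalization and 16 after 75th percentile scaling. The replicate block gave 7345 higher and 3689 lower probe sets, and the same 1650 and 754 past 2-fold. Replicate deviations of pistils and siliques correlated at -0.11, so that a crossed pairing was added after seeing the data, and it gave 7449 higher and 3760 lower. The promoter motif counts were not run, as no sequences were at hand. Causes were not tested.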

Other observations

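Transcripts of the mitochondrial genome, grouped by name after the values were seen, were lower in siliques for 12 of 15 genes and higher for none, with a median of -1.21. The respiratory chain subunit nad9 gave 139 and 144 in siliques and 1281 and 2120 in pistils (-3.01 ± 0.18), and cox2 gave 86.2 and 92.6 against 838 and 1754. The 2 pistil arrays lay apart for these genes, and the sum over the 15 was 10803 and 16479 in pistils, 4823 and 5069 in siliques. Ovules, of the study of the pistils, summed to 8909 on average, and flowers, of the study of the siliques, to 4739. Probe sets for 1 gene disagreed: those for nad1 ran from 0.08 to -1.99. Genes of the plastid genome showed no such shift, with 16 higher and 7 lower of 47 and a median of 0.05.

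The next genes were also named after their values were seen. GH3.3, which conjugates auxin to amino acids, gave 1019 and 1256 in siliques and 29.5 and 27.2 in pistils (3.59 ± 0.18), with 656 in flowers. The auxin-response repressors AXR3 and IAA31 gave 2557 and 2754 against 381 and 319 and 1018 and 1094 against 95.2 and 104. AXR3 was high in flowers (2277) and leaves (2082) too, while IAA31 was near background in flowers (77.0) and ovules (117). The response regulator RR22 gave 888 and 1106 against 24.5 and 24.9 (3.46). The asparaginase ASPGB1 gave 3684 and 4248 against 326 and 353 (3.29), and the inositol phosphate synthase MIPS1 7035 and 7617 against 849 and 855, with 11792 in leaves. AO4, an aldehyde oxidase read on a probe set that can bind related transcripts, gave 2837 and 3026 against 172 and 166 (3.64).

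Some genes lower in siliques were named in the same way. The chitinase ChiC gave 61.6 and 47.6 in siliques and 1019 and 986 in pistils (-3.09 ± 0.10), the thionin THI2.1 3838 and 3550 against 12982 and 12619 (-1.77), and PR4 219 and 188 against 1144 and 875 (-1.97). COR27, which responds to cold, gave 53.1 and 68.6 against 1325 and 1053, and ovules held 1454 and flowers 31.2. EFE, the enzyme that releases ethylene, gave 212 and 197 against 2084 and 1562 (-2.76).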
